A study of Bos taurus with 8 samples.

Results

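The zinc finger genes of bovine chromosome 18 were examined as 843 of the 902984 consecutive 3Kb windows of the genome, namely every window of that chromosome whose gene symbol was ZNF or ZSCAN followed by a number. They carried 98 gene symbols, 97 ZNF and 1 ZSCAN (ZSCAN4), at 99 loci, because ZNF415 was named at a pair of separate places. DNA methylation was measured by MIRA-Seq, in which sonicated genomic DNA is pulled down with methyl-binding domain proteins and the bound fragments are sequenced. The libraries came from dermal fibroblasts, the collagen-producing cells of the skin, of 4 Holstein (dairy) and 4 Angus (beef) heifers, with 1 culture and 1 library per animal. All cultures were at passage 5, had been grown in the same serum-supplemented medium and received no treatment; they are called here Holstein 1 to 4 and Angus 1 to 4. A culture stands for the skin of 1 animal after expansion in a flask, and the identity of the cells was not checked here, because DNA libraries hold no marker transcripts.

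Zinc finger proteins of this kind bind DNA through tandem finger repeats, and many of them carry a KRAB domain that recruits TRIM28 and, through it, the histone methyltransferase SETDB1 and DNA methyltransferases. Their genes arose by repeated duplication and stand in clusters. In most KRAB zinc finger genes the fingers are encoded together in the last coding exon, and the 3′ ends of such genes are known in other mammals to carry repressive chromatin and dense CpG methylation, which ZNF274, itself a member here, helps to set by binding there.

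By strand, the 843 windows split into 97 first windows, 97 last windows, 647 internal windows and the lone windows of ZNF580 and ZNF581. A locus covered a median of 6 windows, from 1 to the 118 windows of ZNF423; 16 loci had 2 windows and therefore no internal window, and 81 had 3 or more. Of the 843 windows, 344 held a coding exon. Of the 99 loci, 87 lay in 9 clusters, defined as runs of at least 3 loci whose neighbouring starts were at most 500 kb apart, and 12 lay outside. The largest clusters were cluster 9, with 21 loci from ZNF805 to ZNF446 (UMD v3.1, chr18:64603898-65911897), and cluster 3, with 18 loci from ZNF565 to ZNF850 (chr18:47016198-47916197).

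Reads in windows summed to between 18691111 and 35525554 per library, and values are given as CPM, the count of a window scaled to that sum. At this depth 3 reads in a window corresponded to 0.0844 to 0.161 CPM, which covers counting error only. The zinc finger windows together received 11726 to 32797 reads per library, or 0.0532 to 0.0923% of it. Holstein 1 and Angus 3 stood apart from the other libraries: the 1% of windows with most reads took 69.0% and 72.4% of their reads, against 46.8 to 57.4% in the other 6, and zinc finger windows took 0.0593% and 0.0532%, against 0.0766 to 0.0923%. These 2 libraries were therefore at the low end of the mean levels below, and mean levels are also given without them.

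The zinc finger windows held fewer reads than the windows of other genes. The median zinc finger window had 0.462 CPM over the 8 cultures, the median of 9254 windows of other genes of chromosome 18 had 0.657 CPM, and the median of 11902 windows without a gene name had 0.370 CPM. Of the 843 zinc finger windows 205 reached 1 CPM, compared with 3292 of the 9254 windows of other genes. Long genes count more in these figures: ZNF423 alone supplied 118 of the 843 windows and 71 of the 205. This comparison is a description and carries no test. In cultures of many cells a lower value can come from fewer cells that carry the mark or from fewer methylated CpG sites in each cell. Between different windows it can also come from CpG density, copy number or pull-down efficiency. With no input library these cannot be told apart.

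Along the genes, the mean level was highest in the last window. The mean over 97 genes was 0.785 ± 0.150 CPM (SD over 8 cultures) in first windows, 0.882 ± 0.172 CPM over the 81 genes with internal windows, and 1.63 ± 0.266 CPM in last windows. In Holstein 1 to 4 the last-window means were 1.29, 1.79, 1.69 and 1.87 CPM, and in Angus 1 to 4 they were 1.44, 1.66, 1.28 and 1.99 CPM. The lowest last-window mean among the 8 cultures lay above the highest first-window mean of 0.952 CPM, and above the highest internal mean of 1.06 CPM. Without Holstein 1 and Angus 3 the 3 means were 0.860, 0.968 and 1.74 CPM.

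**Figure D1:**
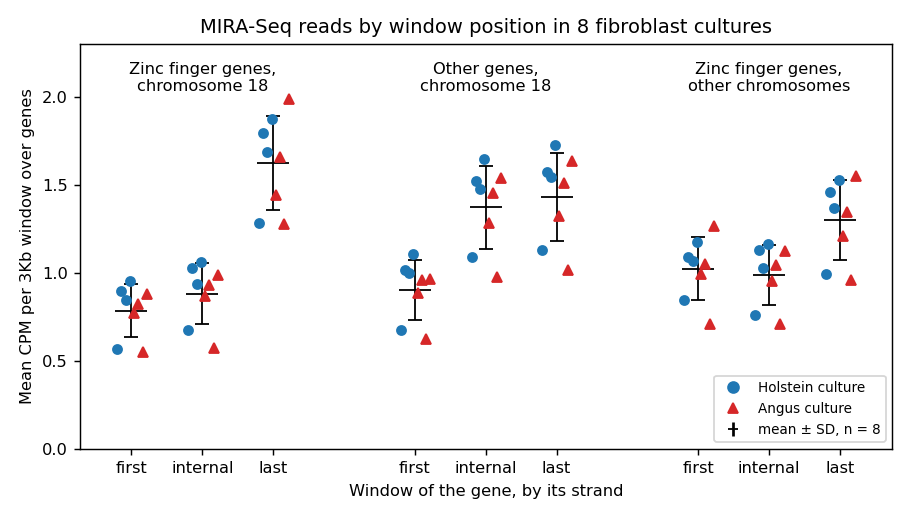
Mean CPM per 3Kb window over genes (vertical axis) in the first, internal and last windows of 3 gene sets, with a point for each of 8 cultures (circles Holstein, triangles Angus) and a bar for the mean ± SD. In zinc finger genes of chromosome 18 every last-window mean (1.28 to 1.99 CPM) lay above every first-window and internal mean. The internal means leave out genes of 2 windows, which the last-window means include. In the other genes of the chromosome internal and last windows lay close together.

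The ratio of the last-window mean to the first-window mean, formed within each culture, was 2.09 ± 0.170 (SD, n = 8) and ranged from 1.87 to 2.33. In the other genes of chromosome 18 this ratio was 1.59 ± 0.0692, with a range of 1.49 to 1.70 that lay below the zinc finger range. With medians over genes in place of means the order of the 2 sets turned, to 1.26 ± 0.131 in zinc finger genes and 1.61 ± 0.132 in the others, and with means of genes of at least 4 windows the ranges overlapped, at 1.85 ± 0.189 and 1.78 ± 0.0974. Against internal windows, the last window held 1.86 ± 0.183 times the internal mean in zinc finger genes. In the other genes of the chromosome it held 1.04 ± 0.00983 times. With medians these ratios averaged 1.11 and 0.946, with ranges of 1 to 1.26 and 0.923 to 0.968. In all 3 gene sets the last-window values took in genes of 2 windows, which have no internal window. In zinc finger genes they covered 97 genes and the internal values 81, so the ratios do not compare the same genes. In 202 zinc finger genes of other chromosomes with first and last windows, the last window held 1.27 ± 0.0616 times the first-window mean and 1.32 ± 0.0363 times the internal mean. These ratios describe the same 8 libraries in 3 gene sets and were not compared by a test.

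The means rested on a minority of the genes. The median over genes, averaged over cultures, was 0.426 CPM in first, 0.475 CPM in internal and 0.533 CPM in last windows, whereas the other genes of chromosome 18 had medians of 0.559, 0.940 and 0.891 CPM. Of the 97 last windows, 33 reached 1 CPM and 24 reached 2 CPM, while 49 were below 0.5 CPM; among first windows 14 reached 1 CPM and 57 were below 0.5 CPM. The last window had the higher mean in 53 genes and the lower one in 44. The last window thus held many reads in a minority of the genes.

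Most last windows held a coding exon, 83 of all 97, and so did most of those with many reads. The 83 last windows that held a coding exon averaged 1.80 ± 0.289 CPM (SD, n = 8 cultures), and 31 of them reached 1 CPM. The 14 last windows without one averaged 0.591 ± 0.155 CPM, and 2 of them reached 1 CPM. The median windows differed less, at 0.649 CPM with and 0.444 CPM without a coding exon. In first windows the 57 with a coding exon averaged 1.06 ± 0.204 CPM, and the 40 without one averaged 0.393 ± 0.0844 CPM. The values of coding and non-coding windows did not overlap between cultures at either end of the genes. Internal windows differed less, with 1.01 ± 0.175 CPM in 202 windows with a coding exon and 0.761 ± 0.157 CPM in 445 without, and their median windows were at 0.483 and 0.469 CPM. The other genes of the chromosome showed the same order, with 1.62 and 0.836 CPM in last windows with and without a coding exon. The window with the highest coding exon number was the last window in 83 of 97 zinc finger genes. Its mean was 1.74 ± 0.284 CPM. In the other genes of the chromosome that window was the last one in 818 of 959 genes, with a mean of 1.67 CPM. In zinc finger genes of other chromosomes it was the last one in 162 of 201, with a mean of 1.603 CPM. The level of this window was thus similar in these gene sets, which were not compared by a test.

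Levels were lower again downstream of the last window. In the 74 zinc finger genes of at least 4 windows, the window before the last had 0.941 ± 0.172 CPM, the last window had 1.18 ± 0.197 CPM and the next window downstream had 0.649 ± 0.133 CPM (SD, n = 8 cultures). The first window of these genes, at 0.649 ± 0.130 CPM, lay at the level of the window just upstream of it, at 0.628 ± 0.123 CPM. In the 682 other genes of that size the window before the last, at 1.63 CPM, was higher than the last one, at 1.44 CPM, and the next window downstream had 1.05 CPM. The last-window mean of these longer zinc finger genes was below the 1.63 CPM found over all 97.

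Gene by gene, last and first windows were compared within cultures with edgeR's quasi-likelihood test across all genes of the genome, with a call at FDR < 0.1 and FC ≥ 2. Of the 97 genes, 54 reached the minimum of 1 CPM summed over both windows in at least 4 cultures and were tested. The last window was higher in 29 of them and lower in 9, or 53.7% and 16.7% of those tested. Over all 11890 genes tested the last window was higher in 46.7% and lower in 15.8%, and in the other genes of chromosome 18 in 43.4% and 16.8%. In zinc finger genes of other chromosomes the shares were 54.8% and 18.3%. A gene could pass the minimum through the window in which it was high, so the tested genes are not a sample of all 97; with no minimum all 97 were tested, and 35 were called higher and 26 lower, 36.1% and 26.8%, compared with 35.6% and 19.9% of all 20879 genes. Without the minimum, the share of zinc finger genes with a higher last window was thus near that of all genes, and the share with a lower one was above it. In that fit the shares were 37.8% higher and 17.6% lower in the other genes of chromosome 18. Zinc finger genes of other chromosomes had 37% and 28%, so their share with a lower last window was near that of the members. The 8 last-window and 8 first-window values did not overlap in 31 of the 97 genes, 23 with the last window higher and 8 with it lower, against 23% and 8.99% of all genes.

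Among the 29 genes with a higher last window the median first window had 0.478 CPM and the median last window 3.20 CPM. A coding exon lay in 26 of these 29 last windows, a share near that over all last windows, 83 of 97. Among the 9 genes with a lower last window the medians were 2.40 and 0.667 CPM. The 43 genes that were not tested had medians of 0.310 CPM in the first and 0.171 CPM in the last window.

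**Figure D2:**
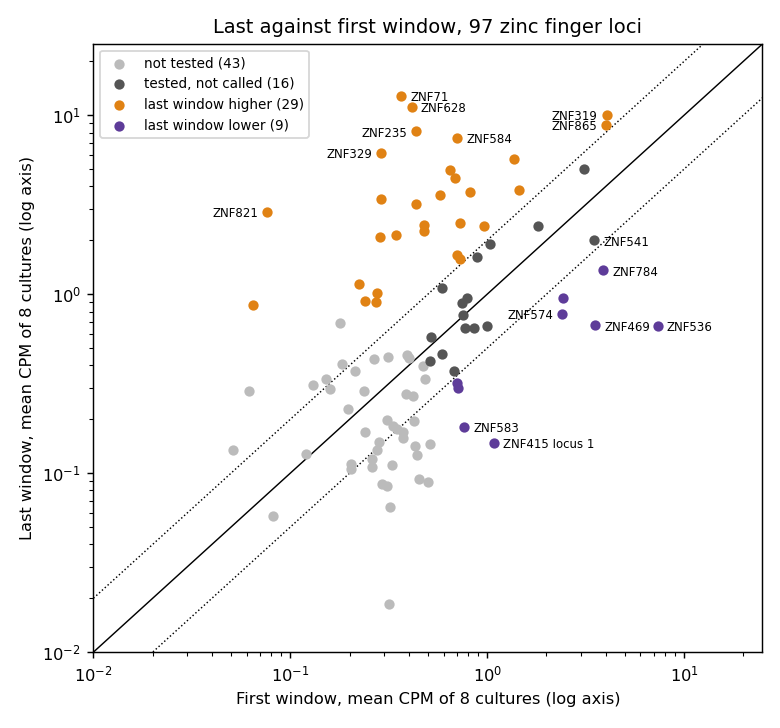
Mean CPM over 8 cultures of the last window (vertical, log axis) against the first window (horizontal, log axis) for 97 zinc finger loci, coloured by the call, with the solid line at equality and dotted lines at 2-fold. The 29 orange genes reach 12.9 CPM in the last window, the 9 purple genes lie below the lower dotted line or close to it, and the grey genes that were not tested lie at the bottom left.

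ZNF71, a gene of cluster 8 first described as induced by tumour necrosis factor in endothelium, had the highest last window of all members (chr18:64012898-64015897, minus strand, coding exon 9). It held 11.0, 12.6, 13.0 and 13.0 CPM in Holstein 1 to 4 and 10.5, 12.5, 14.3 and 16.1 CPM in Angus 1 to 4, while its first window held 0.0506 to 0.663 CPM. All last-window values lay above all first-window values, the breeds overlapped, and the 4 internal windows averaged 1.18 ± 0.299 CPM. The log2 difference between last and first window was 5.10 (SE 0.16, edgeR FDR = 2.7e-28), the largest of the members that were tested.

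ZNF628, with 2 windows in cluster 7, had a last window (chr18:62476498-62479497, minus strand, coding exon 1) with 8.80, 9.39, 12.7 and 12.9 CPM in Holstein 1 to 4 and 8.38, 10.9, 13.0 and 12.9 CPM in Angus 1 to 4. Its first window, 3 kb away and without a coding exon, had 0.202 to 0.661 CPM. All 8 last-window values were above all first-window values (log2 difference 4.70, SE 0.15, edgeR FDR = 3.2e-28). ZNF821, in cluster 1, showed an equally steep contrast at a lower level: its last window (chr18:39365798-39368797, coding exon 5) had a lowest, median and highest value of 1.91, 2.89 and 4.12 CPM, and its first window, without a coding exon, had 0 to 0.175 CPM, at or near the 3-read limit (log2 difference 5.01, SE 0.25, edgeR FDR = 5.6e-22).

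ZNF329 and ZNF584, both in cluster 9, and ZNF235, a KRAB zinc finger gene of cluster 4, had last windows with medians of 6.16, 7.28 and 7.80 CPM. The ZNF329 last window ranged from 3.86 to 8.40 CPM and its first window from 0.101 to 0.522 CPM (log2 difference 4.34, SE 0.17, edgeR FDR = 1.2e-25). In ZNF584, whose last window ranged from 5.31 to 10.8 CPM, the internal window between first and last held only 0.168 ± 0.0933 CPM, and the last window exceeded it by 5.43 on the log2 scale (SE 0.17, edgeR FDR = 7.7e-24). The ZNF235 last window had 6.57 to 11.9 CPM, with Angus 4 above the other 7 cultures, and its first window had 0.168 to 0.606 CPM (log2 difference 4.20, SE 0.14, edgeR FDR = 2.6e-27). In each of these 3 genes the first and last windows did not overlap.

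In ZNF319, ZNF865 and ZNF446 both ends carried reads. ZNF319, which lies outside the clusters and is made of 2 windows that touch coding exon 1, had 8.13, 10.1 and 11.7 CPM (lowest, median and highest) in the last window (chr18:25982798-25985797) and 2.93, 4.13 and 5.72 CPM in the first (log2 difference 1.33, SE 0.10, edgeR FDR = 1.2e-15). ZNF865 had 5.92, 8.65 and 12.2 CPM in the last window and 2.78, 3.57 and 6.10 CPM in the first (log2 difference 1.13, SE 0.10, edgeR FDR = 3.1e-14). The last window of ZNF865 was higher in all 8 cultures, yet the 2 ranges overlapped, since the lowest last-window value, in Holstein 1, was below the highest first-window value, in Angus 4. ZNF446, which encodes a SCAN and a KRAB domain, had 4.08 to 7.21 CPM in the last and 0.739 to 1.70 CPM in the first window (log2 difference 2.05, SE 0.12).

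The opposite pattern was led by ZNF536, which encodes a repressor of neuronal differentiation and spans 36 windows outside the clusters. Its first window (chr18:41114798-41117797, coding exon 1) held 6.83, 6.06, 7.53 and 8.81 CPM in Holstein 1 to 4 and 6.25, 7.61, 6.58 and 9.20 CPM in Angus 1 to 4. Its last window, with coding exon 4, held 0.428 to 0.908 CPM, and the windows did not overlap (log2 difference -3.43, SE 0.14, edgeR FDR = 2.6e-25). The 34 internal windows of the gene averaged 1.13 ± 0.235 CPM.

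ZNF469, whose human counterpart is mutated in brittle cornea syndrome, had 2.05, 3.53 and 5.29 CPM in the first window (chr18:13739798-13742797) and 0.134, 0.743 and 1.04 CPM in the last, where coding exon 5 lies (log2 difference -2.40, SE 0.17, edgeR FDR = 3.4e-17). Its internal windows, at 3.16 ± 0.728 CPM, were at the level of the first window, and the last window was lower than these by a log2 difference of -2.23. The first locus of ZNF415, in cluster 5, had 0.658 to 1.43 CPM in the first and 0.0672 to 0.216 CPM in the last window, which held no coding exon (log2 difference -2.89, SE 0.25). ZNF583 (log2 difference -2.10, SE 0.26), ZNF574 (-1.58, SE 0.17) and ZNF784 (-1.51, SE 0.14) were also called lower in the last window by edgeR, and the last windows of ZNF574 and ZNF784 held no coding exon. In ZNF574 the window before the last, with coding exon 7, held 9.93 ± 2.04 CPM, so that the enrichment was 3 kb inside the annotated end; this window was singled out after its values were seen. ZNF541, a gene of meiotic germ cells, had the sixth highest first window, with 2.52 to 4.46 CPM, and 1.39 to 2.92 CPM in the last (log2 difference -0.79, SE 0.12), which did not reach FC ≥ 2.

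**Figure D3:**
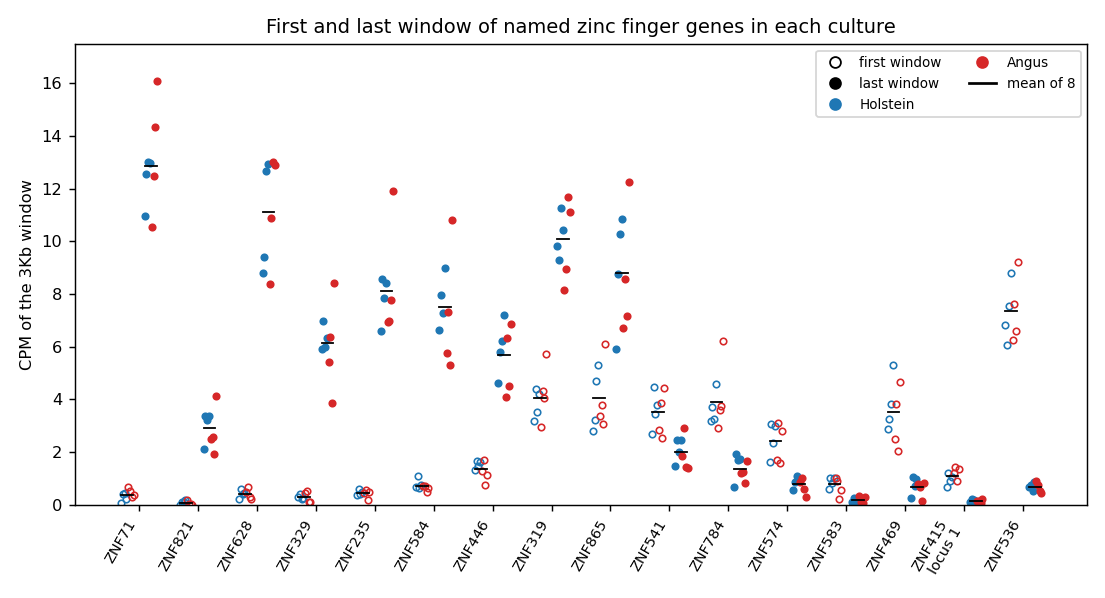
CPM of the first window (open circles) and last window (filled circles) of 16 zinc finger genes in each of 8 cultures (blue Holstein, red Angus), with a line at each mean. From ZNF71 to ZNF865 the mean of the filled points is the higher one, with points up to 16.1 CPM, and from ZNF541 to ZNF536 that of the open points is, with points up to 9.20 CPM; the breeds are mixed throughout.

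A few members were looked at for their known roles, after their values had been seen. ZNF274, the factor that marks 3′ ends of zinc finger genes, itself had a higher last window, with 2.12, 3.55 and 5.73 CPM against 0.253, 0.633 and 0.760 CPM in the first (log2 difference 2.53, SE 0.17, edgeR FDR = 3.1e-17). ZNF331, an imprinted gene in humans, had 1.98 to 4.92 CPM in the last and 0.0672 to 0.454 CPM in the first window (log2 difference 3.48, SE 0.19). ZNF276, whose end overlaps that of FANCA in humans, had 3.20 ± 0.797 CPM in the last window and 2.65 ± 0.407 CPM in internal windows. ZSCAN4, a gene of early embryos and telomere maintenance, had 0.336 ± 0.159 CPM in the last and 0.481 ± 0.190 CPM in the first window and was not tested between them. The lone windows of ZNF581 and ZNF580, neighbours in cluster 7, had 0.253 to 0.904 and 0.101 to 0.390 CPM.

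Against their internal windows, 46 of the 81 genes with internal windows were tested by the same edgeR quasi-likelihood model, and the last window was higher in 13 and lower in 14, or 28.3% and 30.4%. In all 9413 genes tested the shares were 21.9% higher and 19.5% lower, in the other genes of chromosome 18 16.4% and 22%, and in zinc finger genes of other chromosomes 31% and 25.3%. Among the genes called lower, the largest differences were those of the first locus of ZNF415 (log2 difference -2.60, SE 0.22) and of ZNF507, ZNF667 and ZNF469, which reached -2.27, -2.25 and -2.23. With no minimum, all 81 genes were tested, and 14 were higher and 23 lower, against 19.6% and 22.5% of all genes. Of the 81 genes the highest window was an internal one in 51, the last in 19 and the first in 11, and in 48 it held a coding exon. These 81 genes held 647 internal windows, many more than first or last windows, and 344 of all 843 member windows held a coding exon. No such count is given here for other genes.

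The clusters differed in level. The last windows of cluster 7 averaged 5.50 CPM over 5 genes, and those of clusters 8, 9 and 4 averaged 3.11, 2.02 and 1.90 CPM over 7, 21 and 11 genes. Cluster 3 had the lowest mean of the 9 clusters, at 0.159 ± 0.0776 CPM (SD, n = 8 cultures) over 18 genes. In Holstein 1 to 4 the cluster 3 mean was 0.0899, 0.305, 0.139 and 0.180 CPM, and in Angus 1 to 4 it was 0.235, 0.126, 0.0746 and 0.125 CPM. Every culture was thus below the lowest culture of cluster 9, at 1.32 CPM.

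In cluster 3 no last window averaged 0.5 CPM, the range being 0.0187 CPM in ZNF260 to 0.441 CPM in ZNF383, although 16 of the 18 held a coding exon. First windows of this cluster averaged 0.290 ± 0.0837 CPM and internal windows 0.258 ± 0.0635 CPM, so that the last windows were the lowest of the 3. None of its 18 genes reached the CPM minimum of the comparison of last with first windows; with no minimum, 1 was called higher and 9 lower in the last window, where the 18 genes had 0 to 22 reads per library; in that fit 35.6% of all genes were higher and 19.9% lower. Clusters 8 and 9 together contributed 10 of the 29 genes with a higher last window and 4 of the 9 with a lower one, and held 23 of the 54 genes tested. Zinc finger genes of a cluster can be close copies of each other, but their sequences were not compared here. How the aligner treated reads with more than 1 possible origin is not given in the sources used here. The part of such reads in the low counts of cluster 3 was not tested.

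**Figure D4:**
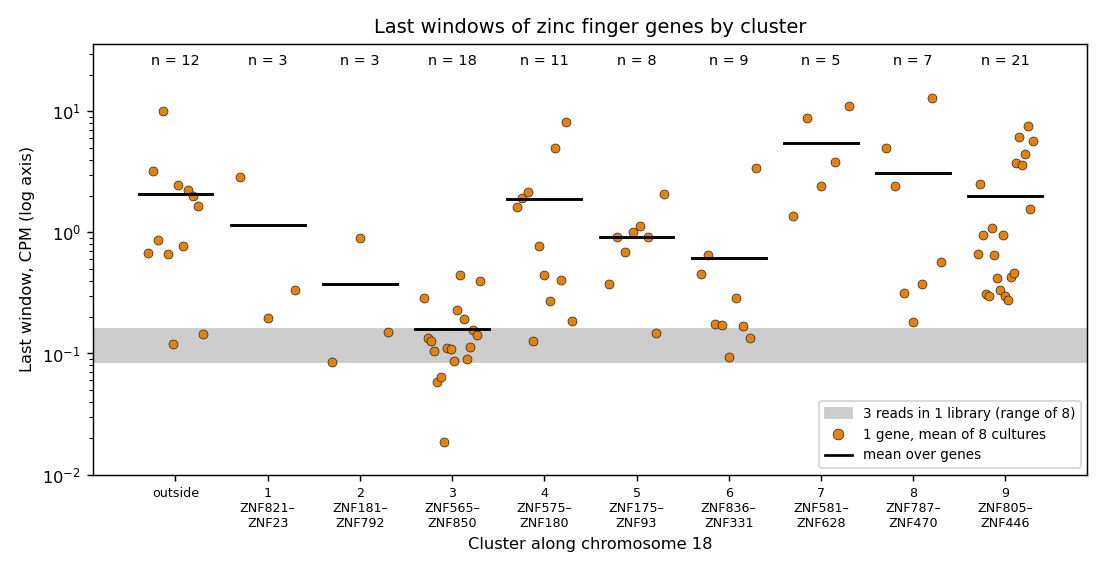
CPM of the last window (vertical, log axis) of each of 97 zinc finger genes, averaged over 8 cultures, for the 9 clusters in chromosome order and for genes outside them, with a line at each mean and a grey band at the value of 3 reads in a library (0.0844 to 0.161 CPM). Genes of cluster 3 lie near or in the band, whereas clusters 4, 7, 8 and 9 each hold genes above 4 CPM.

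ZNF423, which encodes a partner of SMAD and EBF proteins and a factor of preadipocyte commitment, was the longest member and was described after its values had been seen. Its 118 windows cover 354 kb, 10 of them with a coding exon, and had a median of 1.18 CPM, with 71 windows at 1 CPM or more. The first window held 0 to 0.141 CPM and the last 0.354 to 1.21 CPM (log2 difference 3.65, SE 0.32, edgeR FDR = 6e-14). The highest of all 843 zinc finger windows was window 67 of this gene (chr18:18191798-18194797), which holds part of coding exon 4. It had 14.3, 13.5, 14.7 and 14.1 CPM in Holstein 1 to 4 and 11.3, 14.4, 14.1 and 16.5 CPM in Angus 1 to 4, and the neighbouring window upstream, with the same exon, averaged 5.08 CPM. The breeds overlapped at this peak, with means of 14.1 CPM in both.

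**Figure D5:**
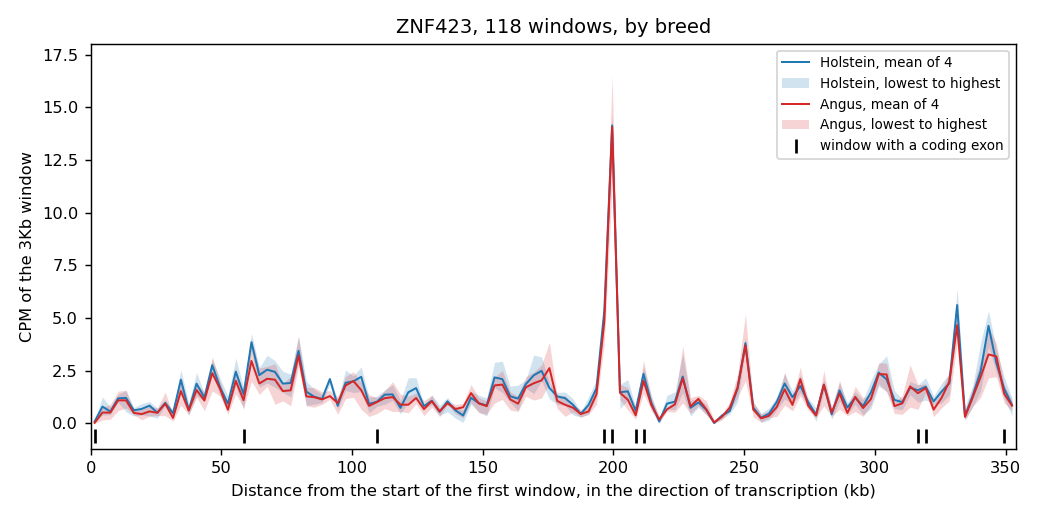
CPM of the 118 windows of ZNF423 (vertical axis) against the distance from its first window in the direction of transcription (kb), as means of 4 Holstein and 4 Angus cultures with shading from the lowest to the highest culture, and ticks at windows with a coding exon. The lines of the breeds run together, including at the peak of 14.1 CPM over coding exon 4.

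The comparison of the breeds asked whether fibroblasts of dairy and beef heifers differ in methylation. No zinc finger window was called. Of the 843 windows, 225 in 60 genes passed the filter of 1 CPM in at least 4 cultures, and 0 reached FDR < 0.1 and FC ≥ 2 by edgeR's likelihood-ratio test, while 0.231% of all 115360 windows tested did. At an unadjusted p below 0.05 there were 12 windows (5.33%), against 4.94% of all windows. The quasi-likelihood test and DESeq2 called 0 as well, with 10 and 7 windows at an unadjusted p below 0.05, and so did a fit with no filter, which took in 842 windows. With 1 library left out, the number at an unadjusted p below 0.05 ran from 7 without Angus 4 to 15 without Angus 1, and 0 were called. The shares of all windows in those fits are not given here. The log2 fold changes of Holstein over Angus ran from -0.74 to 0.60, with a median standard error of 0.191. The tested windows comprised 17 first, 172 internal and 36 last windows, and 77 of the 225 belonged to ZNF423; the other 618 were not tested at this depth.

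Window 59 of ZNF423 (chr18:18215798-18218797, without a coding exon) reached FDR < 0.1 by the likelihood-ratio test but not FC ≥ 2. Of all windows tested, 0.368% reached FDR < 0.1 with any FC, those with FC ≥ 2 included. Window 59 held 1.16, 1.73, 1.93 and 1.91 CPM in Holstein 1 to 4 and 2.51, 2.23, 1.91 and 3.85 CPM in Angus 1 to 4, from 23 to 72 reads. The breeds overlapped, Angus 3 lying below Holstein 3, and the log2 fold change was -0.74 (SE 0.18, edgeR FDR = 0.019). By edgeR's quasi-likelihood test its FDR was 0.103, with no filter it was 0.59, with total counts and no TMM factors it was 1, and leaving out Angus 4 or Holstein 4 gave 0.122 or 0.158. Over the 17 alternatives the lowest FDR of window 59 was 0.0017, by edgeR's likelihood-ratio test without Angus 2. DESeq2, the replicate block and the filter in all 8 samples each had 1 zinc finger window at FDR < 0.1. In 2 of the 225 tested windows the breeds did not overlap, compared with 1.31% of all windows tested: window 31 of ZNF423, with 1.87 to 2.21 CPM in Holstein and 1.14 to 1.56 CPM in Angus (log2 fold change 0.53, SE 0.18, edgeR FDR = 0.38), and window 2 of ZNF582 (log2 fold change 0.22, SE 0.19). Neither was called.

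Reads were also summed over all windows of a gene, which raised the counts so that genes with low windows could pass the filter. Of the 99 loci 88 were tested, 0 were called by edgeR's likelihood-ratio test, and 0.072% of all 19431 genes were. Of the loci, only ZNF470 had an unadjusted p below 0.05, or 1.14%, compared with 2.1% of all genes; the quasi-likelihood test and DESeq2 called 0 members and also had 1 member below 0.05. Without Angus 1, 9 of 85 loci (10.6%) were below 0.05 and 0 were called. The share of all genes in that fit is not given here, so this rise cannot be assigned to the members. The sum over the 4 windows of ZNF470, a KRAB zinc finger gene, was 3.09, 5.19, 4.50 and 5.21 CPM in Holstein 1 to 4 and 3.77, 3.83, 1.98 and 3.00 CPM in Angus 1 to 4, which overlap (log2 fold change 0.35, SE 0.14, edgeR FDR = 1). ZNF85 and ZNF304 followed with log2 fold changes of 0.26 each (SE 0.18 and 0.17). In the other direction ZNF628, ZNF233 and ZNF19 had log2 fold changes of -0.27, -0.26 and -0.26, with standard errors of 0.23, 0.22 and 0.23. In none of the 99 loci did the gene sums of the breeds separate, and the share over all genes was not counted. Scaling to total reads alone moved the median of all genes by 0.16 on the log2 scale: 78 of the 88 sums were then higher in Holstein, against 40 of 88 with TMM factors, and 0 were called either way.

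The difference between last and first window was also compared between the breeds, with 0 of 54 genes called by edgeR's quasi-likelihood test, while 0.0589% of all 11890 genes were. At an unadjusted p below 0.05 there were 3 genes, ZNF296, ZNF93 and ZNF576, against 3.63% of all genes; the likelihood-ratio test gave 4 and DESeq2 1, with 0 called. The mean last-window level over the 97 genes was 1.66 ± 0.260 CPM in Holstein and 1.59 ± 0.306 CPM in Angus (SD, n = 4), and the breeds overlapped at each of the 3 positions.

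Factors through which KRAB zinc finger proteins act were taken as a list from the whole genome, with ZFP57, itself a KRAB zinc finger gene, included. The list held 20 genes, of which 19 were found by symbol. Of these, 18 were tested between the breeds as gene sums and 0 were called, where 0.072% of all genes were. Between last and first windows 8 were tested, of which 7 had a higher last window and 0 a lower one, against 46.7% and 15.8% of all genes. The minimum can be passed through a high last window, and among the 11 genes not tested the last-window mean was the higher one in 4 and the lower one in 7. TRIM28, the KRAB co-repressor, which also lies on chromosome 18, had a log2 difference of 1.28 (SE 0.16), and DNMT1, the maintenance methyltransferase, had one of 4.06 (SE 0.20). DNMT3A, a de novo methyltransferase, was not called, with a log2 difference of -0.63 (SE 0.16).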

How the data were processed

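After a quality filter the authors aligned reads to UMD v3.1 with NextGENe 2.3.4 and deposited, for each MIRA-Seq library, raw read counts in 3Kb windows, without normalization, with the gene, strand and coding exon of each window. They also deposited the highest and mean coverage of each window, a signal not scaled for depth and capped at 65535, which was read only as a check for stacked reads. The submitters' processing notes name CASAVA 1.7. How duplicates and ambiguous reads were handled is not given in the sources used here. No input library was used, so CpG density, copy number and pull-down efficiency are not separated from methylation.

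Groups came from the breed label. CPM used the reads in windows as the library size, 18691111 to 35525554. Windows of 1 symbol and strand formed a locus, split at gaps over 100 windows, and its first and last windows were set by strand. Of the 98 symbols 80 matched RefSeq symbols and 2 more a synonym; none of its coordinates were used, since its assembly differs. Tests were run in R 4.3.3 with edgeR 4.0.16 over all windows or genes: a likelihood-ratio test with TMM for breed, after a filter of 1 CPM in at least 4 samples, and a quasi-likelihood test with the culture as a block for windows within genes. The filter was 1 CPM summed over last and first windows, or a mean of 0.5 CPM per window for last against internal windows. Adjustment was by Benjamini-Hochberg, with calls at FDR < 0.1 and FC ≥ 2. A standard error is the log2 fold change divided by the root of the statistic with the same p. Summaries used Python 3.11.15. The fits were tested on simulated data. Libraries differed from each other by more than sampling noise.

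Named genes were, by rule, those called for breed, the 8 highest last, 6 highest first and up to 4 highest lone windows, the 5 largest differences in each direction between last and first windows, the 3 largest breed fold changes in each direction, and ZNF469 and ZNF319. Members and lists were chosen with earlier results of these data known. The alternatives were the other edgeR test, DESeq2 1.42.0, other scalings, filters and gene sizes, medians, each library left out in turn, and a block for the animal number. Leaving out Holstein 1 and Angus 3 together was chosen after seeing the data.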

Additional observations from a re-analysis of the deposited data

Results flagged for a closer look

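In 3 of 78 groups of 4 cultures, a named window had 1 culture apart from the other 3 of its breed by Dixon's criterion; chance sets apart about 1 in 20 groups. The last window of ZNF235 had 11.9 CPM in Angus 4, where the nearest Angus culture had 7.76 CPM. The last window of ZNF821 had 2.12 CPM in Holstein 1, where the nearest Holstein culture had 3.22 CPM. The lone window of ZNF580 had 0.101 CPM in Holstein 1, below the value of 3 reads in that library, where the nearest Holstein culture had 0.341 CPM. Holstein 1 was also 1 of the 2 libraries with a low share of reads in zinc finger windows.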

How the results depend on the processing

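None of the alternatives run called a zinc finger window or gene between the breeds. The animal number, used as a replicate block, left 0 calls in the 3 breed comparisons; same-numbered cultures had correlations of -0.216 to 0.109, 1 of 4 above 0.1, so the numbers were not taken to pair the cultures. Of the gene sums, that of ZNF628 ran from -0.42 to 0.0371 on the log2 scale with 1 library left out, the sign changing without Angus 3, and it was called in no fit.

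Of the counts of last against first windows, the 29 genes higher of 54 tested became 19 of 37 among genes of at least 4 windows. As shares of the genes tested these were 53.7% and 51.4%. The 9 genes lower became 26 with no CPM filter and 5 with the minimum in all 8 samples, which test more and fewer genes. Against internal windows, the 14 lower became 23 and 9 in these fits. Leaving out 1 library gave 27 to 30 higher and 8 to 9 lower against first windows, 12 to 14 and 13 to 14 against internal windows, and 0 for breed; the mean levels then were 0.761 to 0.818, 0.856 to 0.926 and 1.57 to 1.67 CPM in first, internal and last windows. With matched reads as the library size, the means were 0.477, 0.536 and 0.985; the medians over genes were 0.426, 0.475 and 0.533 CPM; the last-window mean of genes of at least 4 windows was 1.18 CPM. Of the named values of single genes, 536 kept direction and the call by FDR and FC together, and 2 did not; the other, beside ZNF628, was ZNF574, whose last-to-internal difference was -0.95 without Angus 4. The depth left 618 of the 843 windows out of the breed test.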
